A study of Mus musculus with 16 samples.

Results

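Epithelial adhesion and bile duct genes were followed in whole mouse liver: Cdh1, Epcam, Krt7, Krt8, Krt18, Krt19, Sox9, Spp1, Cldn1 and Cldn7. They were taken by name, all 10 were among the 15119 genes of the counts table, and all 10 were among the 14434 genes that passed the filter on low counts. The livers came from female mice, either wild type (WT) or lacking Arglu1, a transcriptional coregulator, in hepatocytes (LKO). The mice had been aged to 9 months on chow. For a further 12 weeks they stayed on chow or were switched to the TD. 88137 diet, which is high in fat (HFD). This gave 4 libraries each of WT on chow, LKO on chow, WT on HFD and LKO on HFD. The labels name neither the Cre line nor the exons removed, and they do not say that libraries are separate animals, so the p-values measure the spread between libraries.

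E-cadherin, the product of Cdh1, joins neighbouring epithelial cells at adherens junctions through its extracellular domain and is tied to actin through catenins. Claudins form the seal of the tight junction, and keratins 8 and 18 pair into the intermediate filaments of hepatocytes. Bile duct cells carry keratins 7 and 19 in addition, together with EpCAM, the transcription factor SOX9 and the secreted phosphoprotein osteopontin (Spp1). In mouse liver E-cadherin is known as a periportal hepatocyte and bile duct protein, whereas N-cadherin (Cdh2) is found in hepatocytes across the lobule.

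Promoter sequences are shown for Krt18 and Spp1, which passed the test of genotype averaged over both diets, and for Epcam, whose libraries did not overlap between genotypes on HFD. Krt19 did not overlap there either and had no promoter entry. They come from RefSeq (GRCm38.p6), lie on the plus strand and are written 5′ to 3′. Capitals mark CAGGTG or its reverse complement CACCTG, the E-box form that repressors of the SNAIL and ZEB families are known to bind. The motif and these 3 promoters were chosen after values had been seen. The Krt18 window ends before the GENCODE gene start, which leaves out the last 36 of its 250 bases, so its printed end is not the RefSeq start.
Epcam, chr17:87635729-87635978: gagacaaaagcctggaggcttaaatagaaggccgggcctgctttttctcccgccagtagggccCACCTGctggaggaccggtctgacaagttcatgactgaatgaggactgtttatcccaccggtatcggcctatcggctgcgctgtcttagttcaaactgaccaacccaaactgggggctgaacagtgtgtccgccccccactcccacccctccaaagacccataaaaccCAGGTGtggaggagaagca
Krt18, chr15:102027966-102028179: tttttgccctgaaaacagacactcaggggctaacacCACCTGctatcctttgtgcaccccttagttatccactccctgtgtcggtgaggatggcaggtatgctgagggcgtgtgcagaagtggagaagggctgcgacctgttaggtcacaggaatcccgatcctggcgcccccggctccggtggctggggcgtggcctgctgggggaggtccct
Spp1, chr5:104434861-104435110: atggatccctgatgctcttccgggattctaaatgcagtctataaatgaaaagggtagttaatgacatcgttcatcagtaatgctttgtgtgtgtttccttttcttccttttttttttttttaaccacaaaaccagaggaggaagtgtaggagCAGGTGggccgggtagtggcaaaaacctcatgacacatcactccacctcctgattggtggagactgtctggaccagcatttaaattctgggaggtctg

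Counting back from the RefSeq transcript start, the motif began at -187 and -19 in Epcam, at -214 in Krt18 (base 37 of the letters shown) and at -98 in Spp1. The RefSeq table matched 7 of the 10 genes with 9 windows of 250 bases before the start, and 6 of the 9 windows, in 6 of the 7 genes, held the motif on either strand. Of all 32851 promoter windows, 17.2% held it. The motif was chosen with values known, so these shares were not tested against each other. Genes with it include Krt18 and Spp1, which moved in opposite directions, and Krt7 and Krt8, which were not called. A match describes these letters and not binding, and no measurement of binding was made here. The genes matched were Epcam, Krt7, Krt8, Krt18, Spp1, Cldn1 and Cldn7. Cdh1, Krt19 and Sox9 had no window, so nothing is known here of the motif in Cdh1.

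Libraries held 19142612 to 25120565 counts. Arglu1 itself was at 41.2 ± 2.62 CPM (counts scaled per 1000000 of the TMM library size; SD, n = 4) in WT and 14.7 ± 1.56 in LKO on chow, and at 42.2 ± 1.70 and 15.5 ± 1.53 on HFD. The 5 hepatocyte markers Alb, Ttr, Apoa1, Hnf4a and Tat summed to 80340.7 to 108016 CPM in WT on chow, 103718 to 113808 in LKO on chow, 53916.2 to 60217.5 in WT on HFD and 73793.8 to 89624.5 in LKO on HFD. Alb was the highest of the 5 on average over all libraries, and the markers did not move together. For LKO against WT in edgeR, Alb rose by 0.58 on the log2 scale on HFD and did not pass on chow. Tat fell by 1.28 on chow and 0.79 on HFD, Hnf4a by 0.26 on chow and Ttr by 0.42 on HFD. These are whole-tissue libraries, in which fewer cells of a type and less RNA per cell cannot be told apart.

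Per kilobase of exons, the 10 genes spanned a wide range of levels over the 16 libraries. Krt8 averaged 132 CPM per kb (78.9 to 202) and Krt18 averaged 110 (72.2 to 177). Spp1 followed at 18.4 (11.2 to 31.8), Cldn1 at 13.5 (9.67 to 19.4) and Cdh1 at 5.48 (0.743 to 13.8). Neighbours among these 5 overlapped in range, except that the lowest Krt18 value lay above the highest Spp1 value. Sox9 averaged 0.944 CPM per kb, Epcam 0.570, Krt19 0.366, Cldn7 0.244 and Krt7 0.128, again with overlapping neighbours. The keratins of hepatocytes thus stood far above those that mark bile ducts in every library.

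**Figure D1:**
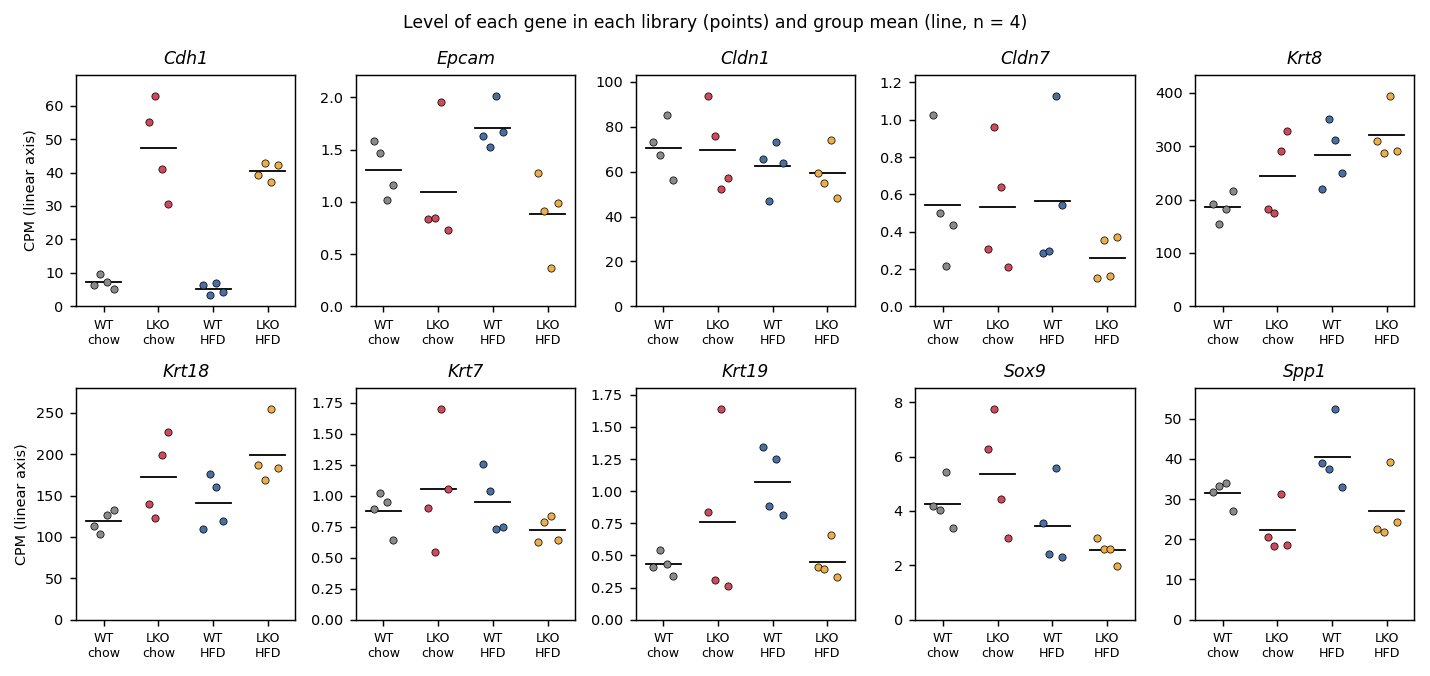
Level of each of the 10 genes in TMM-scaled CPM (vertical axes, each with its own scale from 0) in the 4 groups; points are libraries and lines are group means (n = 4). Cdh1 was 30.7 to 63.0 CPM in the 8 LKO libraries and 3.40 to 9.63 CPM in the 8 WT libraries, while most other genes overlap between groups.

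Cdh1 rose with genotype on both diets and was the 1 gene of the 10 called in edgeR on either. Other settings called more of the 10 in 12 of 27 cases on chow (at most 3) and in 13 of 27 on HFD (at most 5), and with the replicate number as a block Spp1 was also called on both diets. On chow Cdh1 was at 6.45, 9.63, 7.39 and 5.22 CPM in WT libraries and at 55.1, 63.0, 40.9 and 30.7 in LKO libraries. On HFD it was at 6.25, 3.40, 6.92 and 4.31 CPM in WT and at 39.3, 42.8, 37.2 and 42.2 in LKO. No LKO library overlapped a WT library, and the LKO libraries on HFD lay close together while those on chow were more spread out. The fitted log2 fold change of Cdh1 for LKO against WT was 2.72 (SE 0.244) on chow, a 6.60-fold difference, with a Benjamini-Hochberg adjusted p of 8.42e-07 in edgeR. On HFD it was 2.95 (SE 0.249), a 7.71-fold difference, with an adjusted p of 5.97e-07 in edgeR. By size of log2 fold change, Cdh1 was gene 90 of 14434 on chow and gene 63 on HFD.

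The genotype differences in Cdh1 on chow and on HFD were not distinguishable: the interaction was 0.22 on the log2 scale (SE 0.334, adjusted p = 0.85 in edgeR). For HFD against chow, Cdh1 was at -0.46 in WT (SE 0.252) and at -0.23 in LKO (SE 0.221). The adjusted p of 0.42 and 0.63 in edgeR did not pass. Behind these levels stood 69.2 to 230 counts of Cdh1 per WT library and 585 to 1634 per LKO library. They were whole numbers in 1 of 16 libraries, and the way in which the counts were split between transcripts or genes is not given in the sources used here.

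The balance of the 2 classical cadherins of hepatocytes differed between genotypes. Cdh2, N-cadherin, stood at 10.9 to 17.4 CPM per kb in all 16 libraries. The ratio of Cdh2 to Cdh1 per kb was 10.1 ± 2.36 in WT and 1.26 ± 0.372 in LKO on chow, and 11.6 ± 3.10 in WT and 1.33 ± 0.111 in LKO on HFD (SD, n = 4). In LKO libraries 1 and 2 on chow the ratio was 0.991 and 0.994, so that the 2 genes were about level per kb. Cdh2 itself fell on chow (log2 difference -0.30, SE 0.0898; edgeR adjusted p = 0.02) and did not pass the test on HFD. Most of the shift in the ratio was therefore in Cdh1.

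**Figure D2:**
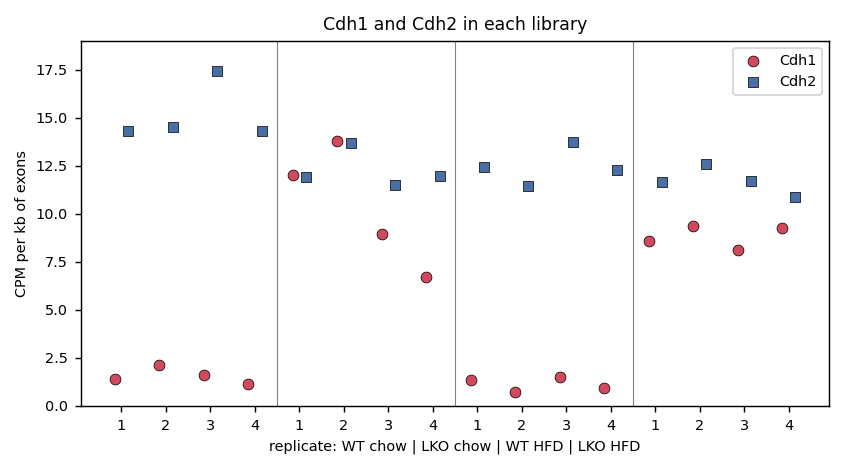
Cdh1 and Cdh2 in CPM per kb of exons (vertical axis) in each of the 16 libraries (horizontal axis, replicates within group). Cdh2 stays between 10.9 and 17.4 in every library, and Cdh1 moves from at most 2.11 in WT to at least 6.71 in LKO.

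Cdh1 lies at chr8:106603351-106670246 on the plus strand (GRCm38, GENCODE M21). Tango6, 12822 bases to its right, fell on chow (log2 difference -0.56, SE 0.174; edgeR adjusted p = 0.0259) and was at -0.15 on HFD, where it did not pass. P-cadherin, Cdh3, was at 0.14 on chow and -0.25 on HFD and passed in neither. Over the 16 libraries, the genes whose centred log2 CPM followed Cdh1 most closely were Sftpd (root mean square difference 0.355), Serpine2 (0.377) and Micall2 (0.394). Sftpd encodes surfactant protein D, Serpine2 a serine protease inhibitor and Micall2 an actin and junction adaptor. Their log2 fold changes were 2.69, 2.69 and 3.57 on chow and 3.08, 2.89 and 3.02 on HFD, and they lie on chromosomes 14, 1 and 5.

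Against the background of the table, 1 of 10 genes called was not a high share. On chow edgeR called 24.7% of all genes tested and on HFD 17.9%. The median log2 fold change of the 10 genes was 0.285 on chow and -0.411 on HFD, beside 0.0235 and -0.00621 over all genes tested. At an unadjusted p below 0.05 in edgeR, 3 of the 10 were different on chow and 5 on HFD. The share of all genes at that unadjusted cut is not given here. It is at least the 24.7% and 17.9% called, since an adjusted p is never below the unadjusted one. Nothing particular to the 10 is read from the unadjusted counts.

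**Figure D3:**
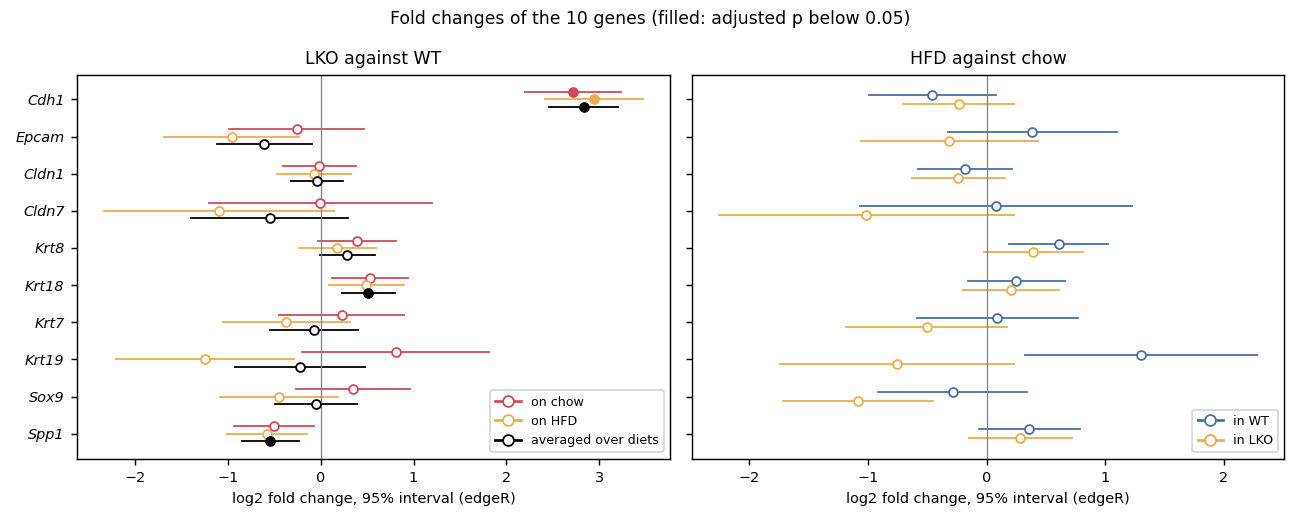
Fitted log2 fold changes (horizontal axes) with 95% intervals from edgeR for the 10 genes, for each comparison; filled points have an adjusted p below 0.05. Cdh1 alone is filled in both genotype comparisons, at 2.72 and 2.95, with Krt18 and Spp1 filled only for the average over diets, and no gene is filled for diet.

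Epcam encodes a homophilic adhesion protein of the bile duct and of progenitor cells. It was at 1.63, 1.52, 2.02 and 1.67 CPM in WT on HFD and at 1.28, 0.92, 0.37 and 0.99 in LKO on HFD, with no overlap. The difference was -0.96 on the log2 scale (SE 0.345), and its adjusted p of 0.0640 in edgeR did not pass. On chow, Epcam was at 1.02 to 1.59 CPM in WT and 0.74 to 1.96 in LKO, at -0.26 on the log2 scale, with LKO library 3 the highest of all 8. The interaction of -0.70 (SE 0.489) was not distinguishable from 0. Counts for Epcam were 9 to 50 per library.

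Cldn1, a sealing claudin of hepatocyte and duct tight junctions, was at 56.5 to 85.3 CPM in WT and 52.5 to 93.9 in LKO on chow, and at 46.8 to 73.1 and 48.4 to 74.2 on HFD. The groups overlapped in every comparison. Its log2 difference on chow was -0.01, with a 95% interval of -0.41 to 0.38, which as a fold runs from 0.753 to 1.30. Cldn7, a claudin of duct and other epithelia, had 3 to 28 counts per library. At this depth the 95% interval of its fold by genotype on chow ran from 0.433 to 2.30. On HFD its log2 difference by genotype was -1.10 (SE 0.587, adjusted p = 0.220 in edgeR). HFD against chow was at 0.08 in WT and at -1.01 in LKO (SE 0.589, adjusted p = 0.390 in edgeR). None passed, and with so few counts changes of this size can go uncalled.

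Krt8 and Krt18 encode the type II and type I keratin of the hepatocyte filament. On chow Krt18 was at 113, 104, 126 and 132 CPM in WT and at 140, 123, 199 and 227 in LKO. On HFD it was at 110, 175, 160 and 119 in WT and at 187, 169, 255 and 183 in LKO. On each diet the LKO mean was higher, though the ranges overlapped on both. The log2 difference was 0.54 on chow (SE 0.193) and 0.49 on HFD (SE 0.193). With edgeR adjusted p of 0.0528 and 0.09, neither passed.

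Averaged over both diets, a comparison added after these values had been seen, Krt18 rose 1.43-fold (log2 0.51, SE 0.137; edgeR adjusted p = 0.00759). In that comparison 34.1% of all genes were called, and 3 of the 10 were: Cdh1 and Krt18 rose and Spp1 fell. Krt18 lost its call (0.32, adjusted p = 0.0579 in edgeR) without LKO libraries 3 and 4 on chow, which held its 2 highest values of that group. Leaving out the highest values lowers the group mean by construction, so nothing further is read from this loss. Krt8 was at 154 to 216 CPM in WT and 175 to 328 in LKO on chow, and at 220 to 351 and 286 to 395 on HFD. Its log2 differences by genotype were 0.39 on chow (SE 0.198) and 0.18 on HFD (SE 0.197), and the edgeR adjusted p of 0.168 and 0.60 did not pass.

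The 2 keratins kept a narrow ratio within each group, and the ratio moved with diet. Krt8 to Krt18, in counts per kb, was 1.24, 1.09, 1.06 and 1.20 in WT on chow and 0.955, 1.05, 1.07 and 1.06 in LKO on chow. On HFD it was 1.47, 1.47, 1.43 and 1.54 in WT and 1.22, 1.25, 1.14 and 1.16 in LKO. Every WT library on HFD exceeded every other library, and the 2 genotypes overlapped on chow. The ratio of group means was 0.805 for LKO against WT on HFD, 1.29 for HFD against chow in WT and 1.15 for HFD against chow in LKO. Each of these 3 gave p = 0.0286 in a 2-sided exact permutation test of 4 against 4 libraries, the smallest p possible, and 0.0381 after Benjamini-Hochberg adjustment over 4 comparisons. LKO against WT on chow was 0.900, with an exact p of 0.0857. The ratio was chosen after the values had been seen, and with any 1 library left out the exact test cannot go below 0.0571.

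**Figure D4:**
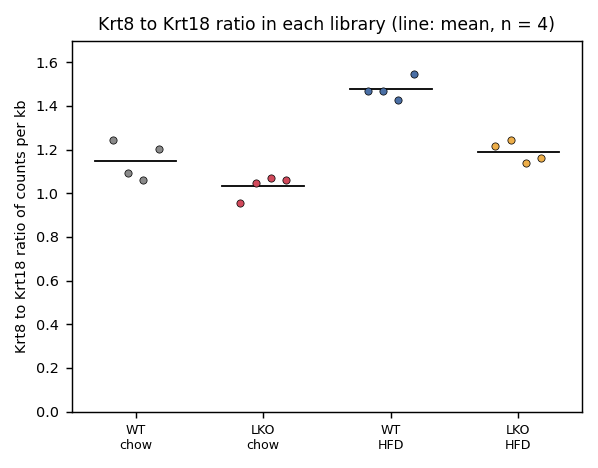
Ratio of Krt8 to Krt18 counts per kb (vertical axis, from 0) in each library of the 4 groups; lines are means (n = 4). WT on HFD sits at 1.43 to 1.54, above all 12 other libraries, which run from 0.955 to 1.25.

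Krt8 and Krt18 lie 23698 bases apart on chromosome 15 and are read in opposite directions. Exons of Krt8 overlap those of Gm36026 on the opposite strand, and exons of Krt7 those of the antisense gene Gm671. Whether the counting used strand is not given in the sources used here, so reads of these pairs cannot be told apart. The counts of Krt8 were whole in 15 of 16 libraries, and those of Krt7 were fractional in all 16.

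Krt19 and Krt7, the duct keratins, were close to the limit of what these libraries measure, with 5 to 36 and 12.2 to 37.3 counts. Krt19 was at 0.41, 0.54, 0.43 and 0.34 CPM in WT on chow and at 1.34, 0.89, 1.25 and 0.81 in WT on HFD. In LKO it was at 0.84, 0.31, 1.64 and 0.26 CPM on chow and at 0.41, 0.40, 0.66 and 0.33 on HFD. In WT the 2 diets did not overlap, and on HFD the 2 genotypes did not overlap. In LKO on chow 2 libraries were high and 2 low. HFD against chow in WT was 1.30 on the log2 scale (SE 0.465, adjusted p = 0.171 in edgeR), LKO against WT on HFD was -1.25 (SE 0.456, adjusted p = 0.0678) and the interaction was -2.05 (SE 0.661, adjusted p = 0.42). None passed. Krt7 was at 0.55 to 1.70 CPM over the 16 libraries, with no comparison near the threshold.

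Sox9 drives duct identity and is switched on in hepatocytes during ductal reaction. It was at 4.17, 4.02, 5.43 and 3.38 CPM in WT on chow and at 6.26, 7.75, 4.43 and 3.01 in LKO on chow. It was at 3.55, 2.41, 5.57 and 2.30 in WT on HFD and at 3.02, 2.60, 2.59 and 1.98 in LKO on HFD. The LKO libraries on chow spanned the widest range of the 4 groups. HFD against chow in LKO was -1.08 (SE 0.299) with an adjusted p of 0.0691 in edgeR, and did not pass. Genotype differences were smaller and opposite in sign, at 0.34 on chow (SE 0.291) and -0.45 on HFD (SE 0.303), and neither passed.

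Spp1, osteopontin, is made by duct cells and, in fatty liver, by macrophages. It was at 31.7, 33.3, 34.0 and 27.0 CPM in WT on chow and at 20.7, 18.4, 31.2 and 18.5 in LKO on chow. On HFD it was at 39.0, 37.4, 52.4 and 33.0 in WT and at 22.6, 21.9, 39.3 and 24.4 in LKO. In both LKO groups 3 libraries lay below every WT library of the same diet, and library 3 lay within the WT range. The log2 differences were -0.51 on chow (SE 0.204) and -0.58 on HFD (SE 0.202), with edgeR adjusted p of 0.0821 and 0.0570 that did not pass. Averaged over diets, Spp1 fell by 0.54 (SE 0.143, adjusted p = 0.00746 in edgeR), to 0.686 of the WT level. Exons of Spp1 overlap those of Gm42793 on the same strand, so reads of that pair are uncertain.

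None of the 10 genes was called for diet, which does not show that they were unaffected by it. HFD against chow called 0 of 10 in WT, where 2.04% of all genes were called and 2 of the 10 (Krt8 and Krt19) had an unadjusted p below 0.05 in edgeR; DESeq2 also called 0. Krt8 in WT was at 0.61 (SE 0.198, adjusted p = 0.134 in edgeR), a fold of 1.52 with a 95% interval of 1.14 to 2.04 and no overlap between diets. Krt8 in WT was called under 2 of 27 other settings, and Sox9 in LKO under 4 of 27. In LKO the count was again 0 of 10, against 2.22% of all genes, with 1 of the 10 (Sox9) at an unadjusted p below 0.05, and DESeq2 called 1. For the interaction it was 0 of 10 against 0.0208% of all genes, with 1 (Krt19) unadjusted and 0 in DESeq2.

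Library-specific differences ran through the LKO chow group. Libraries 1 and 2 were higher than 3 and 4 for Cdh1, Sox9 and Cldn1, and lower for Krt8 and Krt18. Library 3 of LKO on chow held the highest value of its group for Epcam, Krt7, Krt19 and Spp1. On HFD, library 3 of WT and library 3 of LKO were each the highest of their group for 6 of the 10 genes.

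Other junction genes were listed by structure. The counts in each list, here and below, stand beside the 24.7% of all genes called on chow and the 17.9% on HFD. Nothing particular to a list is read from its count. Of 11 adherens junction genes, 2 rose and 3 fell on chow and 1 rose on HFD. Plekha7, which links the junction to microtubules, rose by 0.61 (SE 0.170) and 0.58 (SE 0.169). Nectin3, a junction adhesion receptor, fell by 0.51 on chow (SE 0.127). Of 18 tight junction genes tested, 2 rose and 2 fell on chow, and 4 rose and 1 fell on HFD. Marveld2, which encodes tricellulin, rose by 0.71 on chow (SE 0.0948) and 0.63 on HFD (SE 0.0955), and Marveld3, a related tetraspan protein, by 1.80 (SE 0.312) and 1.78 (SE 0.351). Tjp1, the scaffold ZO-1, fell by 0.54 (SE 0.135) and 0.50 (SE 0.134). Ocln, occludin, rose on HFD by 0.82 (SE 0.151).

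Desmosome genes moved in both directions. Of 7, 1 rose and 3 fell on chow, and 1 rose on HFD. Pkp3, plakophilin 3, rose by 1.45 on chow (SE 0.165) and 2.33 on HFD (SE 0.174). Perp and Dsc2, a tetraspan protein and a desmosomal cadherin, fell on chow by 0.46 (SE 0.0815) and 0.66 (SE 0.165). Of 3 other keratins tested, 0 were called by genotype in edgeR on either diet, with 2 at an unadjusted p below 0.05 on chow and 0 on HFD, and DESeq2 called 0. Krt23, a keratin of bile duct reactions, rose with HFD in WT by 1.62 (SE 0.356, adjusted p = 0.0246 in edgeR), a value named after it was seen. In LKO it was at 0.98 (SE 0.358, adjusted p = 0.159) and the interaction was -0.64 (SE 0.504, adjusted p = 0.71), so no difference between genotypes was shown in edgeR.

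**Figure D5:**
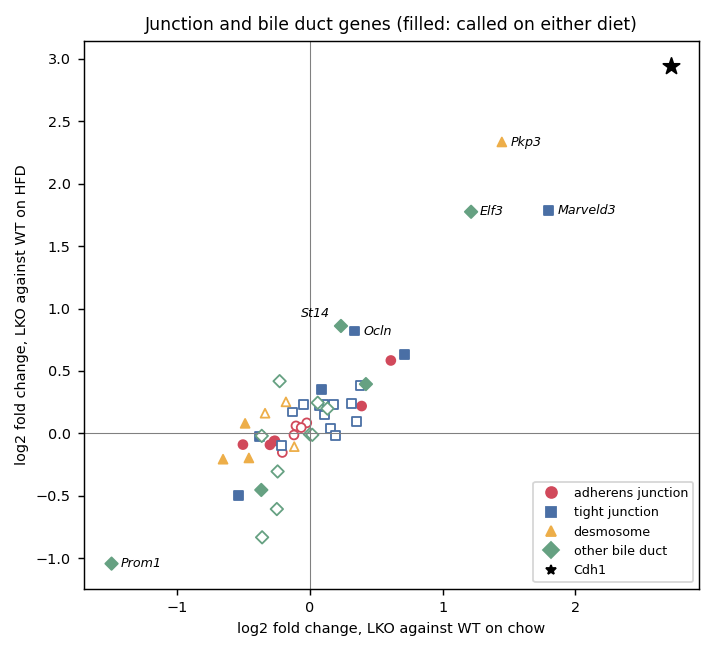
Log2 fold change of LKO against WT on chow (horizontal axis) and on HFD (vertical axis) for junction and other bile duct genes, with Cdh1 as a star; filled symbols were called on at least 1 diet. Cdh1, at 2.72 and 2.95, lies beyond Pkp3 and Marveld3, the next highest on HFD and on chow, and most genes lie near 0.

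Other bile duct markers were called in both directions. Of 14 tested, 1 rose and 1 fell on chow, and 3 rose and 1 fell on HFD. Prom1 fell by 1.50 on chow (SE 0.455), and Elf3 and St14 rose on HFD by 1.77 (SE 0.461) and 0.86 (SE 0.238). Summed over the list of 20, the level was 218 to 294 CPM in WT and 201 to 230 in LKO on chow, and 205 to 253 and 200.0 to 279 on HFD. The ratios of 0.900 on chow and 0.991 on HFD had exact permutation p-values of 0.286 and 0.857 (4 against 4, 2-sided). Tm4sf4, the highest of these markers on average over all libraries, fell on HFD by 0.45 (SE 0.145, adjusted p = 0.0380 in edgeR). Without it the sum on HFD was higher in LKO by 0.193 on the log2 scale, with an exact permutation p of 0.314. Of the duct-defining markers, Cftr, Sctr, Mmp7 and Ggt1 were below 1 CPM in every library. The part of duct cells in the Cdh1 values was not tested.

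A list of regulators and markers of epithelial and mesenchymal state held repressors of Cdh1 of the SNAIL and ZEB families beside mesenchymal genes. Of 10 tested, 2 rose and 2 fell on chow, and 1 rose on HFD. Grhl1, a grainyhead factor of epithelia, rose by 1.87 (SE 0.275) and 0.80 (SE 0.265). Fn1, a matrix protein, fell by 0.53 (SE 0.146) and Vim, a mesenchymal filament protein, rose by 0.43 (SE 0.139) on chow. Snai2 fell on chow by 0.61 (SE 0.205, adjusted p = 0.0372 in edgeR), and Snai1, Zeb1 and Zeb2 passed on neither diet. Any part of these regulators in the Cdh1 values was not tested. In the Notch and YAP list of 14, 2 rose and 1 fell on chow and 2 rose and 2 fell on HFD. Wwtr1, which encodes TAZ, rose by 1.07 (SE 0.101) and 0.82 (SE 0.0999), Notch1 rose by 1.19 (SE 0.210) and 1.31 (SE 0.211), and Notch2 fell on chow by 0.56 (SE 0.145). On HFD, Ccn2 fell by 0.60 (SE 0.191) and Heyl, named after its value was seen, by 0.73 (SE 0.247).

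Because E-cadherin is periportal in mouse liver, zonation genes were set beside it. Of 10 periportal genes, 0 rose and 5 fell on chow, and 1 rose and 1 fell on HFD. Otc, of the urea cycle, fell by 0.72 (SE 0.110) and 0.63 (SE 0.110), and Cps1, also of the urea cycle, fell by 0.84 on chow (SE 0.182). Cyp2f2 rose on HFD by 0.63 (SE 0.0916). Of 8 pericentral genes, 3 rose on chow, and 2 rose and 2 fell on HFD. Rhbg rose by 0.77 on chow (SE 0.181) and 0.94 on HFD (SE 0.178). On HFD, Lgr5 fell by 1.09 (SE 0.176) and Glul by 0.58 (SE 0.127). Summed periportal markers were at 10392.4 to 12969.5 CPM in WT and 7162.09 to 9006.99 in LKO on chow, and overlapped on HFD. Ass1 was the highest marker of this sum. Any part of zonation in the Cdh1 values was not tested.

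Markers of the other cells of the liver were rarely called by genotype, with wide intervals for some. In edgeR 0 of 6 resident macrophage, 0 of 7 stellate, 0 of 6 endothelial and 0 of 5 mesothelial markers tested were called on either diet. Of all genes, 24.7% were called on chow and 17.9% on HFD. At an unadjusted p below 0.05 there was 1 of these markers, a stellate marker on chow, and DESeq2 called 0. The endothelial marker Lyve1 was at -0.77 on HFD with a 95% interval of -1.83 to 0.30, and the macrophage marker Adgre1 had an SE of 0.708 on chow (both named after their values were seen). Of 6 lipid-associated macrophage markers, Cd9, a tetraspanin, rose on chow (log2 0.69, SE 0.173), and 0 were called on HFD, where 2 had an unadjusted p below 0.05 and DESeq2 called 1. Spp1 is also made by such macrophages. The summed level of the 6 markers overlapped between genotypes on both diets. It was 44.9 to 126 CPM in WT and 60.8 to 98.3 in LKO on chow, and 48.3 to 111 and 55.9 to 82.1 on HFD. Cd9 was the highest marker of this sum. In WT its mean was 92.3 CPM on chow (SD 34.7) and 73.0 on HFD (SD 29.9). With HFD in WT, 2 of the 6 rose and 0 fell. These were Gpnmb, by 2.41 (SE 0.331), and Cd63, by 1.19 (SE 0.249), both named after their values were seen. The sum did not follow these 2 markers, so its overlap does not show whether such macrophages differed between genotypes. Of the hepatocyte markers, 2 of 5 fell on chow, and 1 rose and 2 fell on HFD, where Alb rose by 0.58 (SE 0.113) and Tat, a liver amino acid enzyme, fell by 0.79 (SE 0.220).

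Of 5 gut markers, 1 was tested, Lgals4, a galectin of gut epithelium, and it rose with genotype on both diets, by 1.22 (SE 0.253) and 0.93 (SE 0.255). The 5 summed to 5.60 to 12.8 CPM in WT and 15.5 to 29.7 in LKO on chow, and to 6.64 to 9.99 and 13.1 to 16.1 on HFD. The sum, like Cdh1, did not overlap between genotypes on either diet. Lgals4 was its highest marker, so the sum is not a signal apart from Lgals4. Cdx2, which defines gut epithelium, was at 0 in all 16 libraries, and Vil1, Muc13 and Cdh17 stayed below 1 CPM. Of 5 pancreas markers, 2 were tested and 0 were called on either diet in edgeR, with 1 at an unadjusted p below 0.05 on each and DESeq2 calling 0 on chow and 1 on HFD. Averaged over diets, Cela1, named after its value was seen, rose by 0.53 (SE 0.152, adjusted p = 0.0116 in edgeR). The 5 summed to 6.29 to 7.54 CPM in WT and 9.10 to 11.1 in LKO on chow, with no overlap. On HFD they summed to 4.76 to 28.2 in WT and 10.6 to 12.5 in LKO, which overlapped. The part of other cells in the Cdh1, Krt18 and Spp1 values was not tested.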

How the data were processed

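Liver RNA was poly(A)-enriched and sequenced as paired reads, per the labels' protocols. The submitters' processing notes name mm10, Bowtie2 and DESeq2 without versions or roles; the counting tool, annotation and strand setting are not given in the sources used here. The deposited tables hold estimated counts (expected counts) per gene, of which 51.1% are whole (tolerance 1e-06); they were rounded for the count models. A second deposited table carries RPKM in its name but holds the same estimated counts, with chow columns 1 row low; moved up, it matched in 15119 genes with 1 value differing, and served as an alternative.

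Tests used edgeR 4.0.16 (R 4.3.3): TMM, filterByExpr, robust quasi-likelihood fits with 4 group means over 16 libraries, 2-sided, with calls below 0.05 after Benjamini-Hochberg adjustment over 14434 genes. CPM use TMM library sizes; levels between genes are per kb of GENCODE M21 exons. Exact permutation tests used scipy 1.17.1. Alternatives included DESeq2 1.42.0 and limma 3.58.1. Named genes were the 10 members, up to 3 called genes of lowest p per list and genotype comparison, the 3 genes most like each called member, and Arglu1; further list genes (Snai1, Snai2, Zeb1, Zeb2, Tango6, Cdh3) were named after values were seen (also Krt23). Members and lists were chosen with earlier results of these data known. The averaged comparison and the keratin ratio were added after values were seen. Of 24 correlations between libraries with the same replicate number 5 exceeded 0.1 (median -0.0178), so libraries were treated as unpaired. Some genes of the lists are not reported here by name.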

Additional observations from a re-analysis of the deposited data

Results flagged for a closer look

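In the 48 groups of 4 libraries tested (the 10 genes, the keratin ratio and the summed duct markers), 2 values stood apart from their group by Dixon's criterion, and chance flags about 1 in 20 groups. Epcam was at 1.96 CPM in LKO on chow replicate 3, with the other 3 libraries at 0.74 to 0.85. Spp1 was at 39.3 CPM in LKO on HFD replicate 3, with the others at 21.9 to 24.4.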

How the results depend on the processing

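Cdh1 was called under all 27 alternatives on chow (log2 2.31 to 3.04) and on HFD (2.79 to 3.12). Genes of the 10 called on chow numbered 3 with DESeq2, with the replicate block and without LKO chow libraries 1 and 2, and 2 with voom, upper-quartile scaling and a mean count of at least 50. On HFD they numbered 3 with DESeq2, with only the groups compared, with the replicate block and without LKO chow libraries 1 and 2, and 5 with voom and without libraries 3 and 4. For diet in WT they numbered 1 without either pair, in LKO 1 with DESeq2 and 2 without libraries 3 and 4, and for the interaction 1 without libraries 1 and 2. Nothing particular to the 10 is read from these counts. The pairs of LKO chow libraries left out match the way several of the 10 genes separate that group. Results without either pair are therefore not an independent check. Over all genes, DESeq2 called 702, 750 and 47 for diet in WT, diet in LKO and the interaction; voom called 4511 for genotype on HFD and 470, 2021 and 16 for those 3. With only the groups compared 2152 were called for genotype on chow and 188 for diet in LKO. The interaction had 0 at a mean count of at least 50 and with the replicate block. Without LKO chow libraries 1 and 2 the counts were 618, 2768 and 1264 for diet in WT, diet in LKO and the interaction; without 3 and 4 they were 2373 for genotype on chow and 502 and 179 for diet in WT and LKO. Leaving out 1 library gave 1 to 3, 1 to 4, 0 to 0, 0 to 1, 0 to 0 and 3 to 4 of the 10 in the order genotype on chow, genotype on HFD, diet in WT, diet in LKO, interaction and averaged, and 2698 to 3919, 1977 to 2833, 155 to 359, 111 to 656, 0 to 9 and 4385 to 5155 of all genes. The summed duct markers without Tm4sf4 were at 0.193 (log2) for genotype on HFD and 0.0685 for diet in WT, and with 1 library left out at -0.205 to -0.0534, -0.116 to 0.0498, -0.122 to 0.0296 and -0.0327 to 0.133 for genotype on chow, genotype on HFD, diet in WT and diet in LKO. The cause was not tested. With the replicate block the genes called were Cdh1, Krt18 and Spp1 on chow and Cdh1, Krt19 and Spp1 on HFD; the numbers are not said to pair animals. Depth limits Krt19, Cldn7, Krt7 and Epcam, at 3 to 50 counts per library.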
